A study of Rattus norvegicus with 4 samples.

Results

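Oligodendrocyte lineage transcription factors are the DNA-binding proteins that commit neural precursors to the oligodendrocyte fate and later switch on the genes of myelin. The set described here holds Olig1, Olig2, Sox10, Sox8, Nkx2-2, Nkx6-2, Myrf, Zfp488 and Tcf7l2. Its members were chosen by name for this role, and their probes were found through the RefSeq transcript accession that the array files list for each non-control probe. Of the 9 factors, 7 had a matched probe, with 1 probe for each, and all 7 probes entered the test. No probe could be matched to Zfp488, which encodes a zinc finger partner of OLIG2, or to Tcf7l2, which encodes a Wnt pathway factor of differentiating oligodendrocytes, and both are not analysed here. The 7 measured factors stand among 11656 genes with a tested probe.

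The cells were rat oligodendrocyte precursor cells (OPCs) from pooled cerebral cortices of Sprague-Dawley pups at postnatal day 2, grown for 3 days with PDGF and bFGF and then moved to differentiating medium with thyroid hormone. At that switch they received 50 nM of a siRNA pool against rat Gpr17 (siGPR17) or a non-targeting RNA pool (siNEG), and RNA was taken 48 h later, at day 2 of maturation. GPR17 is a G protein-coupled receptor that appears transiently in immature oligodendrocytes. The data are 4 one-color Agilent arrays, 2 siNEG and 2 siGPR17. The sources used here do not state whether these came from separate cultures, so that p-values measure only the spread between these samples. The comparison asks whether the factors that run the lineage were altered when the receptor was silenced.

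As background, OLIG2 and OLIG1 are basic helix-loop-helix proteins, the first needed to form the lineage and the second acting mainly in its maturation. SOX10 and SOX8 are closely related proteins of the SoxE family, which bind and activate myelin genes, and SOX10 also activates Myrf. NKX2-2 and NKX6-2 are homeodomain proteins, of which NKX2-2 helps to time the exit from the precursor state and NKX6-2 acts late, at axon-glia contacts. MYRF is a membrane-bound protein that cuts itself to release a factor directing myelin gene expression.

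Values are normalized signals, the background-corrected intensity of a probe after each array was scaled to its 75th percentile, and fold changes are siGPR17 over siNEG. Signals of different probes depend on the probe, so that levels of different genes can be compared only roughly. This limits the sums of marker signals given below, in which the brightest probes weigh most. Each array had between 26997 and 28244 probes well above background, 0 non-control spots were saturated, and Gpr17 itself went from 1107 and 1113 on the siNEG arrays to 652.3 and 639.4 on the siGPR17 arrays, a log2 difference of -0.78 with a standard error of 0.085 (adjusted p = 0.209 in limma). The thresholds for a changed gene were those of the study, 1.5-fold together with 0.07 for the adjusted p, applied to limma with Benjamini-Hochberg adjustment over 28016 probes. With 2 arrays against 2 an exact two-sided permutation test cannot give a p under 0.333.

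None of the 7 lineage factors passed these thresholds (0 of 7), and of all 11656 genes 0 passed (0%) in limma. At an unadjusted p under 0.05, limma gave 0 of the 7 factors, against 16.2% of all genes. All 7 were well above background on all 4 arrays. Sox8 was the factor with the largest difference, 1.27-fold lower in siGPR17 OPCs, and Nkx6-2 was the only one with a higher mean, by 1.21-fold. The median log2 fold change over the 7 was -0.10, beside 0.01 over all genes tested, of which the middle part, from the first to the third quartile, spanned -0.15 to 0.14. The siGPR17 arrays lay wholly to one side of the siNEG arrays for 4 of the 7 factors, 3 lower (25.3% of all genes) and 1 higher (28.1% of all genes), beside 53.4% in either direction over all genes. A difference of 1.5-fold or more, whatever its p, was reached by 0 of the 7 and by 5.08% of all genes. These arrays measured bulk cultures, where fewer cells of a type and less RNA per cell cannot be told apart.

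**Figure D1:**
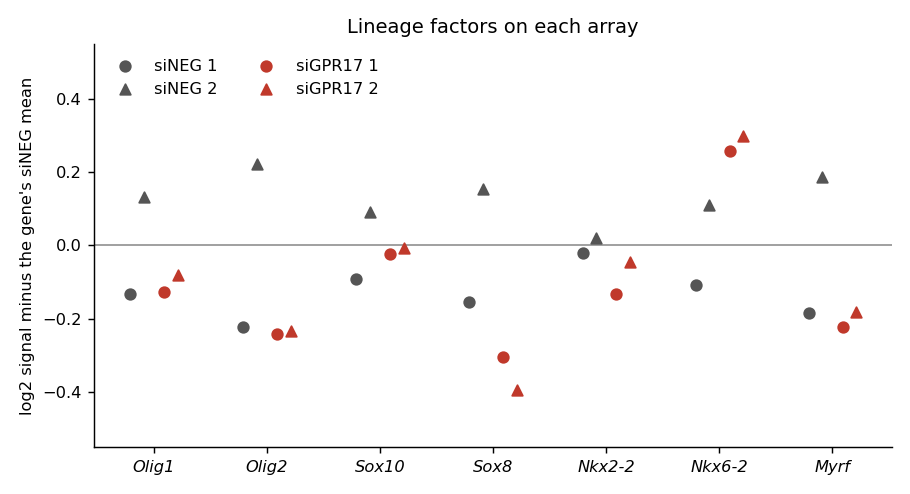
Log2 normalized signal of each of the 7 lineage factors on each array, as the difference from the mean of the siNEG arrays for that gene (y axis, log2). Grey points are siNEG and red points siGPR17, circles replicate 1 and triangles replicate 2. For Sox8 both red points lie below both grey ones and for Nkx6-2 both lie above, while for Olig1, Sox10 and Myrf the groups overlap.

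Of the helix-loop-helix pair, Olig2 had normalized signals of 58644 and 79884 on the siNEG arrays and of 57913 and 58191 on the siGPR17 arrays. Both siGPR17 values lay just under siNEG replicate 1 and far under siNEG replicate 2. The log2 fold change was -0.24 (standard error 0.18, 95% interval -0.72 to 0.24, adjusted p = 0.532 from limma), and without siNEG replicate 2 it was -0.01. Olig1, measured by a probe printed in 2 spots on each array, had signals of 56267 and 67611 in siNEG and of 56504 and 58340 in siGPR17 OPCs. Both siGPR17 values fell between the siNEG arrays, and the log2 fold change was -0.10 (standard error 0.13, 95% interval -0.45 to 0.24, adjusted p = 0.702 from limma), with a sign that turned under spike-in scaling (0.026) and with siNEG replicate 2 omitted (0.029). On siNEG replicate 2 the Olig1 spots differed by 17.1%, and on the other arrays by 0.280% to 5.48%.

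Of the SoxE pair, Sox8 had signals of 10913 and 13502 in siNEG and of 9829 and 9228 in siGPR17 OPCs. Every siGPR17 value was under every siNEG value. The log2 fold change was -0.35 (standard error 0.14, 95% interval -0.73 to 0.03, adjusted p = 0.320 from limma), and its unadjusted p of 0.0636 was reached or passed by 19.1% of all genes tested in limma. Leaving out siNEG replicate 1 gave -0.50 and leaving out siNEG replicate 2 gave -0.20, the ends of the range over single arrays left out. Sox10 had signals of 50584 and 57382 in siNEG and of 52963 and 53603 in siGPR17 OPCs, so that the siGPR17 arrays lay between the siNEG arrays. Its log2 fold change of -0.02 (standard error 0.11, 95% interval -0.30 to 0.27, adjusted p = 0.951 from limma) was the smallest of the 7 and changed sign under spike-in scaling (0.11), with normexp, another background correction (0.077), and without siNEG replicate 2 (0.075).

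Of the homeodomain genes, Nkx6-2 had signals of 1122 and 1306 in siNEG and of 1446 and 1489 in siGPR17 OPCs. Both siGPR17 arrays were above both siNEG arrays. The log2 fold change was 0.28 (standard error 0.11, 95% interval -0.03 to 0.59, adjusted p = 0.328 from limma), and it stayed above 0 under the 8 alternatives that could move it, from 0.17 without siNEG replicate 1 to 0.41 under spike-in scaling. Nkx2-2 had signals of 289.1 and 297.6 in siNEG and of 267.4 and 284.1 in siGPR17 OPCs. Its groups did not overlap, by a narrow margin, and the log2 fold change was -0.09 (standard error 0.090, 95% interval -0.34 to 0.16, adjusted p = 0.642 from limma), with a sign that turned under spike-in scaling (0.040).

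Myrf had signals of 74887 and 96865 in siNEG and of 72966 and 75078 in siGPR17 OPCs. The upper siGPR17 value was above siNEG replicate 1, so that the groups overlapped. Its log2 fold change was -0.20 (standard error 0.15, 95% interval -0.63 to 0.22, adjusted p = 0.543 from limma), and without siNEG replicate 2 it was -0.02.

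**Figure D2:**
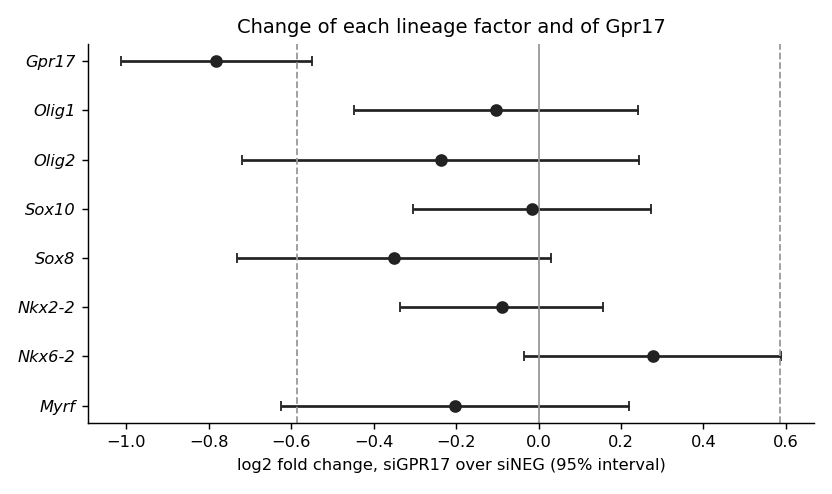
Log2 fold change of siGPR17 over siNEG with its 95% interval from limma (x axis) for Gpr17 and for the 7 lineage factors, 2 arrays per group. Dashed lines mark a fold change of 1.5 in either direction. The intervals of all 7 factors include 0, and those of Olig1, Sox10 and Nkx2-2 lie between the dashed lines.

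The intervals say how large a change these arrays leave room for. For Olig1, Sox10 and Nkx2-2 the 95% interval lay inside a fold change of 1.5 in both directions. For the other 4 it reached that size in one direction, down to 0.602 of the siNEG level for Sox8, 0.607 for Olig2 and 0.648 for Myrf, and up to 1.505 for Nkx6-2. A p that missed the threshold thus does not show that any of these factors was unaltered. The intervals come from the main limma fit with 2 arrays per group, and intervals under the alternatives are not given.

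The spread was larger between the siNEG arrays. All 7 factors had a higher signal on siNEG replicate 2 than on siNEG replicate 1, by 0.04 (Nkx2-2) to 0.45 (Olig2) on the log2 scale with a median of 0.26, and 62.1% of all genes tested lay in this direction. Between the siGPR17 arrays the factors differed by -0.09 to 0.09. Over all genes the median absolute difference was 0.15 between the siNEG arrays and 0.076 between the siGPR17 arrays. The difference between the siNEG arrays moved with brightness, from a median of -0.15 among genes below the 25th percentile of signal to 0.16 among those above the 90th, where Olig1, Olig2, Sox10 and Myrf lie. Its part in the differences between groups was not tested. Replicate numbers also followed the row of the slide, and within row 1 the log2 difference was -0.02 for Olig2, -0.04 for Myrf, -0.15 for Sox8 and 0.37 for Nkx6-2, against -0.46, -0.37, -0.55 and 0.19 within row 2. The column of the slide and the treatment cannot be told apart, since siNEG and siGPR17 were in different columns.

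**Figure D3:**
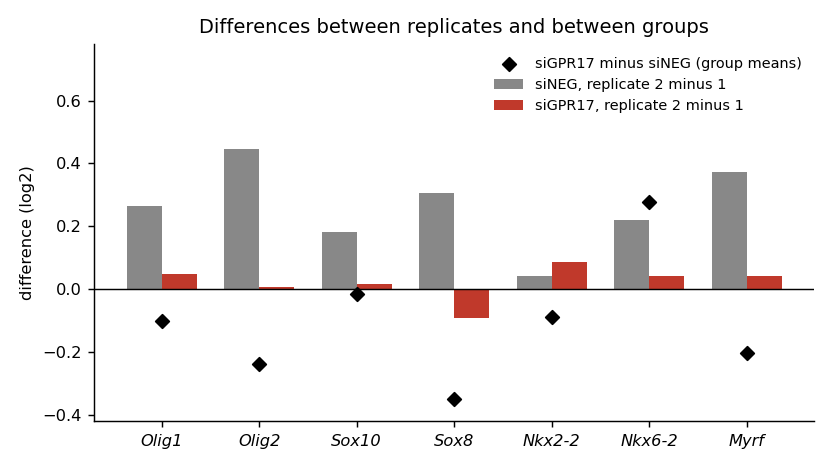
Difference in log2 normalized signal between replicate 2 and replicate 1 in siNEG (grey bars) and siGPR17 (red bars), and between the group means (black diamonds, siGPR17 minus siNEG), for each of the 7 lineage factors. The grey bars are above 0 for all 7 genes and reach 0.45, while the red bars stay between -0.09 and 0.09.

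The relatives were also compared within arrays, as the difference of their log2 signals with the siNEG mean set to 0. A shift between arrays cancels on this measure only as far as both genes share it. From siNEG replicate 1 to 2 the genes of a pair moved by unlike amounts. These were 0.31 for Sox8 and 0.18 for Sox10, 0.22 for Nkx6-2 and 0.04 for Nkx2-2, and 0.45 for Olig2 and 0.26 for Olig1. These 3 pairs were formed after the values had been seen and were given no test. The Sox8 to Sox10 difference was -0.06 and 0.06 on the siNEG arrays and -0.28 and -0.39 on the siGPR17 arrays, a shift of -0.33. The siNEG arrays were 0.13 apart and the siGPR17 arrays 0.11 apart on this measure, less than the shift. The Nkx6-2 to Nkx2-2 difference was -0.09 and 0.09 in siNEG and 0.39 and 0.34 in siGPR17 OPCs, a shift of 0.37 with siNEG arrays 0.18 apart. The Olig2 to Olig1 difference was -0.09 and 0.09 in siNEG and -0.11 and -0.15 in siGPR17 OPCs, a shift of -0.13 that was smaller than the 0.18 between the siNEG arrays. For the SoxE and the homeodomain pair the shift between groups exceeded the distance between the arrays of a group. For the Olig pair it did not. The SoxE and homeodomain pairs hold Sox8, the factor with the largest difference, and Nkx6-2, the only one with a higher mean. Their shifts rest on those same values, and how often other gene pairs shift as much was not counted.

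**Figure D4:**
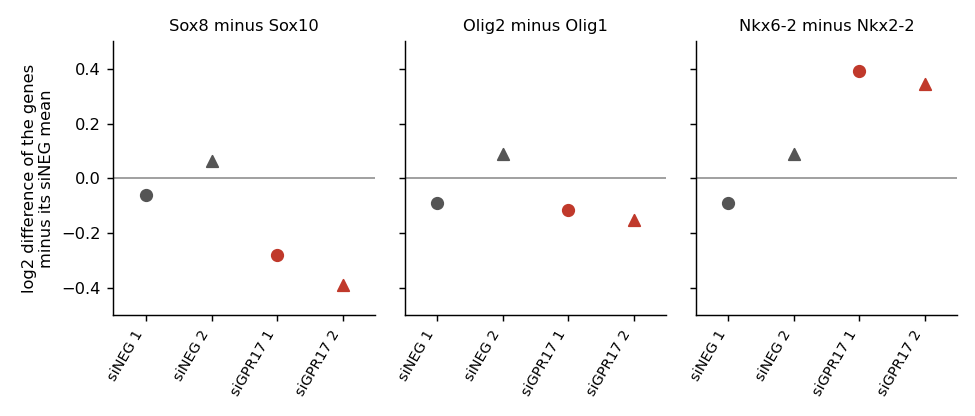
Difference of the log2 signals of related lineage factors on each array, with the mean of the siNEG arrays set to 0 (y axis, log2). Grey points are siNEG and red points siGPR17. The red points lie at -0.28 and -0.39 for Sox8 minus Sox10, at -0.11 and -0.15 for Olig2 minus Olig1, and at 0.39 and 0.34 for Nkx6-2 minus Nkx2-2.

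The window before the annotated start is shown for the measured factors that the RefSeq promoter table for the GRCr8 assembly lists, Olig2 and both homeodomain genes, of which Nkx2-2 had a lower and Nkx6-2 a higher mean in siGPR17 OPCs. Each is 250 bases, 5′ to 3′ on the strand of the gene. Capitals mark the only match found.

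Olig2, chr11:43961335-43961584, plus strand: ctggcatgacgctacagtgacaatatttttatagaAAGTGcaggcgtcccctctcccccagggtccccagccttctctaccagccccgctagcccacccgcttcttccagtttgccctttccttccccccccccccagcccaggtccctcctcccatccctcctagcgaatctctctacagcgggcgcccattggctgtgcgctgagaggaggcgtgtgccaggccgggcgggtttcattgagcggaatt

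Nkx2-2, chr3:155075623-155075872, minus strand: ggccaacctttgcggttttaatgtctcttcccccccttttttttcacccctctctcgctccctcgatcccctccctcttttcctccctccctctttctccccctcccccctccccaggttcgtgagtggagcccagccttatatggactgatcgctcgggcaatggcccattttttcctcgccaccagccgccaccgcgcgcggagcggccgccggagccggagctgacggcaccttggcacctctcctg

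Nkx6-2, chr1:203813123-203813372, minus strand: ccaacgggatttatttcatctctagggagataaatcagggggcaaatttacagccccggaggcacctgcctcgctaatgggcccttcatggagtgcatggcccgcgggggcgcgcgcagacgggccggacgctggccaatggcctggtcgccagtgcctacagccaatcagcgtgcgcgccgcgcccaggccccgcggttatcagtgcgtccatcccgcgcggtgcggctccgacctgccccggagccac

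Short motifs of the factors' own classes were searched on both strands of these windows. They were the E boxes CAGCTG and CATCTG, the SOX motifs ACAAAG and ACAATG, the TCF and LEF motif CTTTGAT and the NKX2 core AAGTG. The Olig2 window held 1 match, to AAGTG, 215 bases before the start, and this core is found in 40.6% of all 33469 windows of the same length. The windows of Nkx2-2 and Nkx6-2 held 0 matches, and among all windows the other motifs are found in 3.15% (CTTTGAT) to 16.3% (ACAAAG). The windows were rich in GC, with 62.0% in Olig2, 63.2% in Nkx2-2 and 67.2% in Nkx6-2 against a median of 51.2% over all windows. A match of these letters is a description and no sign of binding.

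The proteins with which the lineage factors act were taken as a further list of 30 genes, among them the SoxD repressors Sox5 and Sox6, the E proteins Tcf3, Tcf4 and Tcf12, histone deacetylases, chromatin remodelers and thyroid hormone receptors. Of these, 27 had a matched probe and 23 were tested, and 0 passed the thresholds in limma. After silencing 18 had lower and 5 higher means (median -0.10 on the log2 scale). Spike-in scaling adds the same amount to every gene, and with it 14 of the 23 were higher, beside 72.8% of all genes. At an unadjusted p under 0.05 there were 4 lower and 0 higher of 23, against 8.73% lower and 7.43% higher of all genes. Sox5, which encodes a SoxD protein that holds back SOX10 on myelin genes, had signals of 2827 and 3100 in siNEG and of 2032 and 2061 after silencing of Gpr17. This difference of -0.53 on the log2 scale (standard error 0.096, adjusted p = 0.209 from limma) was the lowest of the list, with both siGPR17 arrays well under both siNEG arrays. The next lowest was Nfia, a factor of glial specification (-0.36, adjusted p = 0.252 from limma), and the highest were Yy1, a zinc finger regulator (0.20, adjusted p = 0.413 from limma), and Sox9, the SoxE gene of early glia (0.19, adjusted p = 0.749 from limma). The signals of Sox9 were 397.6 and 237.3 in siNEG and 342.8 and 359.2 in siGPR17 OPCs, so that the siNEG arrays enclosed the siGPR17 arrays.

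Of 9 relatives from the same protein families outside the set, 6 were tested, and all 6 had higher means after silencing (median 0.21 on the log2 scale), while 52% of all genes tested were higher. Without siNEG replicate 2 it was 4 of 6, and without siGPR17 replicate 2 it was 5 of 6 with a median of 0.12. Among the 6 are Sox9, also in the list of partners, and Lef1, also in that of TCF targets, and in both the groups overlapped. Apart from Sox9 the signals were low, with siNEG means from 22.8 (Nkx2-1) to 85.9 (Nkx6-3). None passed the thresholds (0 of 6 in limma), and 1 had an unadjusted p under 0.05. It was Tcf7l1, a TCF protein that mostly represses, with signals of 41.9 and 41.8 in siNEG and of 53.8 and 60.8 in siGPR17 OPCs (log2 fold change 0.45, standard error 0.10, adjusted p = 0.218 from limma). Nkx2-1, a homeodomain gene of ventral forebrain and thyroid, was next with 22.5 and 23.1 in siNEG against 24.04 and 29.7 in siGPR17 OPCs (log2 fold change 0.23, adjusted p = 0.452 from limma). On none of the arrays was Nkx6-1 well above background.

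Myelin genes with known SOX10 or MYRF control were split in direction. Of 13 such genes 11 were tested, 4 with higher and 7 with lower means after silencing (median -0.16 on the log2 scale), and 0 passed the thresholds in limma. A single array moved this median, to -0.023 without siNEG replicate 2, where 5 of the 11 were higher, and to -0.24 with siNEG replicate 1 omitted, where 3 were. The lowest was Mog, a late surface protein of myelin, with signals of 359.3 and 413.2 in siNEG and 255.6 and 227.9 in siGPR17 OPCs. The highest was Mbp, the basic protein that compacts myelin, with 197178 and 227699 in siNEG and 256521 and 272873 in siGPR17 OPCs. In both genes the groups did not overlap, and the log2 fold changes were -0.67 (adjusted p = 0.210 from limma) for Mog and 0.32 (adjusted p = 0.294 from limma) for Mbp. Cldn11, a tight junction protein of myelin, gave 0.22 on the same scale. Gjb1, a gap junction gene, gave -0.30, with 47.3 and 58.9 in siNEG against 41.3 and 44.6 in siGPR17 OPCs. For Sox10 and Myrf themselves the arrays of the groups overlapped.

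For the Wnt branch, in which Tcf7l2 acts with beta-catenin, 8 target genes were listed and 5 tested, 2 higher and 3 lower, with a median of -0.0015 and 0 past the thresholds in limma. The lowest was Apcdd1, a Wnt inhibitor of the cell surface, at -0.41 (adjusted p = 0.333 from limma), with signals of 913.0 and 1196 in siNEG against 837.4 and 738.1 in siGPR17 OPCs. The highest was Axin2, a feedback inhibitor of the pathway, at 0.23 (adjusted p = 0.305 from limma), with 80.3 and 80.5 against 93.0 and 95.2. Leaving out siNEG replicate 1 gave a median of 0.063 and leaving out siNEG replicate 2 one of -0.10. With the mean of a gene's tested probes in place of the brightest one, the median was 0.092 and 3 of 5 were higher. Under spike-in scaling, which raises every gene alike, it was 0.13. On none of the 4 arrays were Notum, Rnf43 and Sp5 well above background.

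**Figure D5:**
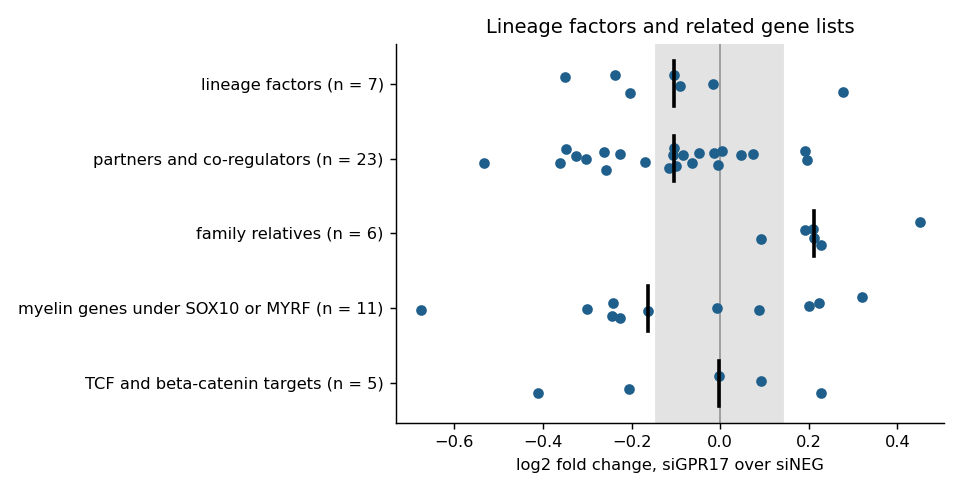
Log2 fold change of siGPR17 over siNEG (x axis) for each tested gene of the lineage factors and of 4 related lists, 1 point per gene, with the median as a black bar. The grey band runs from the first to the third quartile of all genes tested, -0.15 to 0.14. The medians are -0.10 for the lineage factors and their partners, 0.21 for family relatives, -0.16 for myelin genes and -0.0015 for TCF targets.

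The 3 genes nearest to the array pattern of Sox8 were sought among the other tested genes, with the lineage factors left out of the ranking. By the root mean square difference of the deviations from the mean over the 4 arrays, they were Rps6, a ribosomal protein gene, at 0.0095, Pou3f1, a POU factor of glia and neurons, at 0.014 and Tspyl1 at 0.015 on the log2 scale. With 4 arrays and 11656 genes such closeness is a description only. Of the lineage factors, Olig2 (0.082) and Myrf (0.090) were nearest to Sox8 and Nkx6-2 (0.32) farthest.

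The markers of the labelled cells were present. All 5 OPC markers tested, Pdgfra and Cspg4 among them, were lower in siGPR17 OPCs, with a summed signal of 47069 to 47817 on the siNEG and 38013 to 38612 on the siGPR17 arrays, and Gpr17 itself is 1 of the 5. Of 7 tested oligodendrocyte markers 3 were higher and 4 lower (median -0.23), and signals summed over the 9 matched genes were 300877 to 337945 and 355461 to 369846. Mbp makes up most of that sum, and without it the tested markers summed to 103676 and 110221 in siNEG and to a lower 98926 and 96954 in siGPR17 OPCs, a split made after the values were seen. The median was -0.09 without siNEG replicate 2, and Ermn was well above background on none of the arrays and Opalin on 1 of the siNEG arrays. Sums of the other types are likewise over the matched genes. For astrocytes, 2 of 6 markers were higher and 4 lower (summed signal 7588 to 8202 in siNEG and 5987 to 6076 in siGPR17 OPCs). The siGPR17 arrays lay wholly under the siNEG arrays for those 4, as for 25.3% of all genes tested. In the 2 higher ones the groups overlapped and the signals were low. For neurons 0 of 6 were higher and 6 lower (3082 to 3515 and 2760 to 2898). For microglia 1 of 6 was higher and 5 lower (2535 to 3777 and 2535 to 3006), or 3 of 6 higher with siNEG replicate 1 omitted. Of the listed markers of neurons and microglia, Slc17a7 and Csf1r were well above background on no array, and all the others were on every array. For endothelium 3 of 3 were higher (313 to 344 and 490.1 to 496.03, with Pecam1 and Cldn5 well above background on no array). For fibroblasts and mural cells 2 of 2 were higher (300.05 to 403 and 406 to 406.2, with Dcn, Lum and Pdgfrb well above background on no array). In both of these genes the groups overlapped, and with no filter on dim probes 2 of 5 were higher (median -0.024). For Schwann cells, which also express Sox10, 2 of 5 were higher and 3 lower (409.6 to 422.2 and 366.6 to 368.1). Among 8 tested transcription factors of other glia and of neurons 2 had higher and 6 lower means (median -0.27), from Rorb at -0.58 to Hey1 at 0.33. In limma 0 genes of these lists passed the thresholds, and their part in the values of the lineage factors was not tested.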

How the data were processed

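Total RNA of rat OPCs was hybridized to one-color Agilent arrays, with 100 ng of RNA labelled per sample. The authors deposited 1 file per array with spot intensities from Feature Extraction 10.7.3.1, per the file headers. That software had corrected them for background, and no normalization across arrays had been applied. Spot and background medians in the same files are uncorrected.

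Log2 values were computed from the processed intensities, and the 75th percentile of each array was subtracted. Control and outlier-flagged spots were dropped, and spots of one probe were averaged. Linear signals are these values times one factor common to all arrays. A probe was tested if at least 2 arrays had it well above background, which held for 28016 of 45565. The test was limma 3.58.1 (lmFit, eBayes; R 4.3.3), with Benjamini-Hochberg adjustment. A gene with several probes was represented by its brightest one. The number of arrays limits the precision. Probes were named by transcript accession, without versions, through a RefSeq table of GRCr8, which named 21093 probes. The files list no probe sequence and the array design is of another build, so no probe position is given.

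The lineage factors and the further lists were chosen with earlier results of these data known. The genes named are the lineage factors, Gpr17, the highest and lowest genes of each further list, at most 2 each way, and the 3 genes nearest in pattern to the factor with the largest difference. Other genes named in lists are there as examples or markers. The result of 1 gene of these lists is not reported here by itself. The code was tested on simulated data. The alternatives were normexp on the spot median with an offset of 50 (the spot mean was not used here), quantile normalization, scaling on the median of bright probes or on 9 spike-in probes, no filter, a filter on all 4 arrays, the methods' t-test, the trend and robust options, a replicate block, the mean of a gene's probes and each array left out.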

Additional observations from a re-analysis of the deposited data

How the results depend on the processing

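Under all 14 alternatives 0 of the 7 lineage factors passed the thresholds, and the lowest adjusted p of any of them was 0.150 in limma, for Sox8 with the trend and robust options. Over all genes the count past the thresholds went from 0 to 112 with normexp and to 184 with the trend and robust options, and it was 0 to 0 with an array left out. Of the alternatives, 6 leave the fold change of each factor as it is, since they keep its 1 probe and the difference of its group means. Of 56 values under the other 8, 50 kept their sign and 6 did not. The sign of Sox10 turned with normexp (0.077), under spike-in scaling (0.11) and without siNEG replicate 2 (0.075), that of Olig1 under spike-in scaling (0.026) and without siNEG replicate 2 (0.029), and that of Nkx2-2 under spike-in scaling (0.040). Spike-in scaling moved the median of all genes to 0.14 and that of the factors to 0.026. It adds the same amount to every gene, so the difference of the medians, -0.11, could not change. With single arrays left out the median of the factors ranged from -0.24 (siNEG replicate 1 omitted) to -0.015 (siNEG replicate 2 omitted), and the cause was not tested. An unadjusted p under 0.05 in limma was reached by Sox8 and Nkx6-2 with quantile normalization and with the trend and robust options, by Sox8 with normexp, by Nkx6-2 under spike-in scaling and without siNEG replicate 2, and by Sox8, Olig2 and Myrf without siNEG replicate 1. With a siNEG array left out, only the siGPR17 arrays give a gene's own spread, which was the smaller one, and the lone siNEG array is assumed to vary like them. With the replicate number as a block, the fold changes and so the median of -0.10 could not move, since both groups hold the same numbers. The block changed only the p-values, with 0 factors past the thresholds and no call changed. The replicate differences of the groups correlated with r = -0.065 over probes, and the numbers were not taken as pairs. Whether same-numbered samples share a culture is not stated in the sources used here.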
